A study of Rattus norvegicus with 14 samples.

Results

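Mitochondrial fatty acid oxidation and ketone use were followed through 34 genes, chosen by name for acyl-CoA synthesis, the carnitine shuttle, beta-oxidation, electron transfer and ketone metabolism. No measured value enters that rule, although earlier results of these data were known when the list was made. Of these, 33 were among the 16816 gene symbols of the count table, and Acad8 was not found there under its symbol or its older names. RNA was sequenced from PCCL3 cells, a differentiated rat thyroid follicular line grown with thyrotropin, insulin and hydrocortisone. PPFP cells stably express the human PAX8-PPARG fusion protein (PPFP) with a myc tag, whereas EV cells carry the empty vector, and the sources used here do not say whether either line is a single clone. Each line received 1 μM pioglitazone, an agonist of PPARG, or the DMSO vehicle for 16 hours, which gave 4 groups of 3 libraries from independent experiments and 12 libraries in all.

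Fatty acids enter oxidation as acyl-CoA, cross the mitochondrial inner membrane as acyl-carnitine, and are then shortened in a repeating spiral of dehydrogenation, hydration, a further dehydrogenation and thiolysis. Electrons from the acyl-CoA dehydrogenases pass through the electron transfer flavoprotein to the ubiquinone pool, and the acetyl-CoA that is released feeds the citric acid cycle or, mainly in liver, ketone body synthesis. Many genes of this pathway are known targets of the PPAR family, which binds as a dimer with the retinoid X receptor to direct repeats of AGGTCA spaced by a single base.

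Promoters are shown first for Crat and Acad11, which rose more than 2-fold with pioglitazone in PPFP cells. RefSeq promoters (GRCr8, 250 bases before to 50 after the gene start) were matched for 29 of the 34 genes, with no entry for Cpt1b, Cpt1c, Acadl, Acaa2 and Decr1. The motif searched was AGGTCA, any 1 base, AGGTCA, on both strands and with up to 2 mismatches among the 12 fixed letters, and capitals mark a match. Positions count from 1 at the gene start, with negative positions before it. Crat lies at chr3:34087050-34087349 (minus strand) with a match from -223 to -211, and Acad11 at chr8:113559962-113560261 (plus strand) with none.
Crat: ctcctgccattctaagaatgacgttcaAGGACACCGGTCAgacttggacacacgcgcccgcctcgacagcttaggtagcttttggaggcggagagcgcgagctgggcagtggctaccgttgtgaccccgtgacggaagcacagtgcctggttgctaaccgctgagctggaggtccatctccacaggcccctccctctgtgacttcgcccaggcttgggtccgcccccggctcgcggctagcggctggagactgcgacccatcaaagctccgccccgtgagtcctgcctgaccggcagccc
Acad11: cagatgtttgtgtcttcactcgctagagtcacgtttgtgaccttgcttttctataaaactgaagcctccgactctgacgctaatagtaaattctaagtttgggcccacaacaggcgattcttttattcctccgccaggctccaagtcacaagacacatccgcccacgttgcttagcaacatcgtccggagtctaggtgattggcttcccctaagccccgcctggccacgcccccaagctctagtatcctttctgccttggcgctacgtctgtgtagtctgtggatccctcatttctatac
The motif was matched in 5 of the 29 promoters (17.2%), compared with 1263 of all 33469 promoters of the same length (3.77%). With up to 1 mismatch it was matched in 1 of 29 (3.45%), Acadvl, compared with 0.439% of all promoters. These matches are a description of the sequence and not sites of binding. Acadvl, at chr10:55236656-55236955 (minus strand), held its match from -17 to -5.
Acadvl: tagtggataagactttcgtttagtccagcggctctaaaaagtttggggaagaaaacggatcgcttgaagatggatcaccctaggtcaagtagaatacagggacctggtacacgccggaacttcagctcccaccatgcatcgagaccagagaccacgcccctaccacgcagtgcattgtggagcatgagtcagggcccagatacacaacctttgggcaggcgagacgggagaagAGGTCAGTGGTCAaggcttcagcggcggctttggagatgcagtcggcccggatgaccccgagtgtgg
Slc25a20 and Etfa, which rose with pioglitazone, also had a match, and these promoters and that of Acadvl were picked for it after the search. The promoter of Slc25a20, at chr8:118243323-118243622 (plus strand), held it from 16 to 28, after the gene start.
Slc25a20: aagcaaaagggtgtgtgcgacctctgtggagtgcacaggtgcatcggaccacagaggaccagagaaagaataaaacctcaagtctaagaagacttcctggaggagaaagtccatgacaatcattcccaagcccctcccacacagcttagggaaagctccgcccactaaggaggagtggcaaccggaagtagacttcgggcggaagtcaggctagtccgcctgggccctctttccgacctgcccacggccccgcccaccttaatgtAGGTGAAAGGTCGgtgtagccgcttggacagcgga
Etfa, at chr8:64787916-64788215 (minus strand), held it from -154 to -142 on the opposite strand.
Etfa: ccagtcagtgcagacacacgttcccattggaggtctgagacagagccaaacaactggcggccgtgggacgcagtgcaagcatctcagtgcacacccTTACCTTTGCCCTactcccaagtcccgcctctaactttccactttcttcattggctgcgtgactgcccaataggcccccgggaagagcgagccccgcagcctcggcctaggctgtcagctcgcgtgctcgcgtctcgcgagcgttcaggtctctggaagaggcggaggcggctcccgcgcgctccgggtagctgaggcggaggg
The remaining match was AGACCTCTGATCT in Echs1, at chr1:204333457-204333756 (minus strand), from -155 to -143 on the opposite strand, a gene whose level did not pass edgeR's quasi-likelihood test in any comparison. Hadha and Hadhb, which encode the subunits of the trifunctional protein, start 301 bases apart on opposite strands and their promoter windows share 200 bases. Neither window held a match, and Hadha, at chr6:31907551-31907850 (plus strand), is shown for the shared stretch.
Hadha: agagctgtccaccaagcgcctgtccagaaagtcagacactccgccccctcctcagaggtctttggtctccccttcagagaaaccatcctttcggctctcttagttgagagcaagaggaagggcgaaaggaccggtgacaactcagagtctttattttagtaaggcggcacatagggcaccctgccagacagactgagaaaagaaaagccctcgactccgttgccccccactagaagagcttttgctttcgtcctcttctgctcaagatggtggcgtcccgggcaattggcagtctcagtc

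Total counts were between 23724703 and 35240176 per library, and levels are given as CPM, the count scaled to a common library size by TMM over the 12 libraries. The Pparg symbol was at 46.9 to 60.4 CPM in PPFP cells without pioglitazone and 50.8 to 61.7 with it, but at 1.199 to 2.83 in EV cells. The fusion holds human PAX8 and PPARG sequence, and reads were aligned to the rat genome. Reads of the fusion and of the rat genes therefore cannot be told apart under Pparg, or under Pax8, a thyroid marker used below. The summed level of 8 thyroid follicular cell markers was 10419 to 14013 CPM in EV cells without pioglitazone and 11122 to 14662 with it, and 13717 to 14354 and 10021 to 10332 in PPFP cells, and of the 8 markers 1 was higher and 5 lower in PPFP cells without pioglitazone, 1 and 6 with it, and 0 rose and 5 fell with pioglitazone in PPFP cells (8 fell with the replicate block). The shares of all genes that were lower in these comparisons are 23.1%, 26.4% and 7.13%, and 23.9% with the block. Of 6 adipocyte markers, 4 were tested. Cfd and Adipoq were higher in PPFP cells without pioglitazone (22% of all genes). Plin1 and Cidec, at 0 to 4 counts in these EV libraries, passed the filter only through PPFP cells. By edgeR's quasi-likelihood test the Adipoq call (adjusted p = 0.0265) was lost with some single libraries left out (up to 0.0668). With pioglitazone Adipoq did not pass between the lines, at 0.36. In PPFP cells 3 of the 4 rose with pioglitazone and 1, Adipoq, fell, at -0.91 (7.63% and 7.13% of all genes). The summed level of the 6 markers was 9.19 to 13.9 CPM in EV cells, 723 to 749 in PPFP cells without and 975 to 1006 with pioglitazone. Most of that sum was Cfd, while Lep was at 0 in all 12 libraries and Fabp4 at 0 to 0.189 CPM. Macrophage markers summed to at most 1.38 CPM, fibroblast markers to 20.4 to 34.5 and C cell markers to at most 0.0379. Of the macrophage markers 1, Cd68, was tested and was higher in PPFP cells at 0.86 ± 0.30 (adjusted p = 0.048) without and 1.18 ± 0.31 (adjusted p = 0.0156) with pioglitazone. The call without pioglitazone was lost with the replicate block, at 0.85. Of the fibroblast markers 2 were tested, and 1, Pdgfra, was higher in PPFP cells with pioglitazone, at 0.46 ± 0.12 (adjusted p = 0.0143). None of these 3 markers passed for pioglitazone in PPFP cells by edgeR's quasi-likelihood test (0 at an unadjusted p under 0.05), whereas with the replicate block Pdgfra was higher, at 0.25 (adjusted p = 0.000994), and Col1a1 lower, at -0.53 (adjusted p = 0.00857). The part of these markers in the results was not tested. In such bulk RNA a lower level in fewer cells and a lower level per cell cannot be told apart.

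Summed over the pathway, mRNA levels of PPFP cells exceeded those of EV cells, and were higher still with pioglitazone, whereas EV cells with and without pioglitazone overlapped. The summed level of the 33 genes was 3568, 3272 and 3662 CPM in EV cells without pioglitazone and 3466, 3291 and 3649.9 with it. In PPFP cells it was 4379.5, 4088 and 4216 CPM without pioglitazone and 6575, 6279 and 6265 with it, so that the 3 groups of values, EV cells, PPFP cells and PPFP cells with pioglitazone, did not overlap. Acaa2 alone made up 10.2% to 12.2% of the sum in EV cells, 15.6% to 16.7% in PPFP cells and 23.95% to 25.6% in PPFP cells with pioglitazone (the share of counts, not of protein). Without Acaa2 the sum was 2889 to 3283 CPM in EV cells, 3449 to 3649 in PPFP cells and 4764 to 4894 in PPFP cells with pioglitazone.

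**Figure D1:**
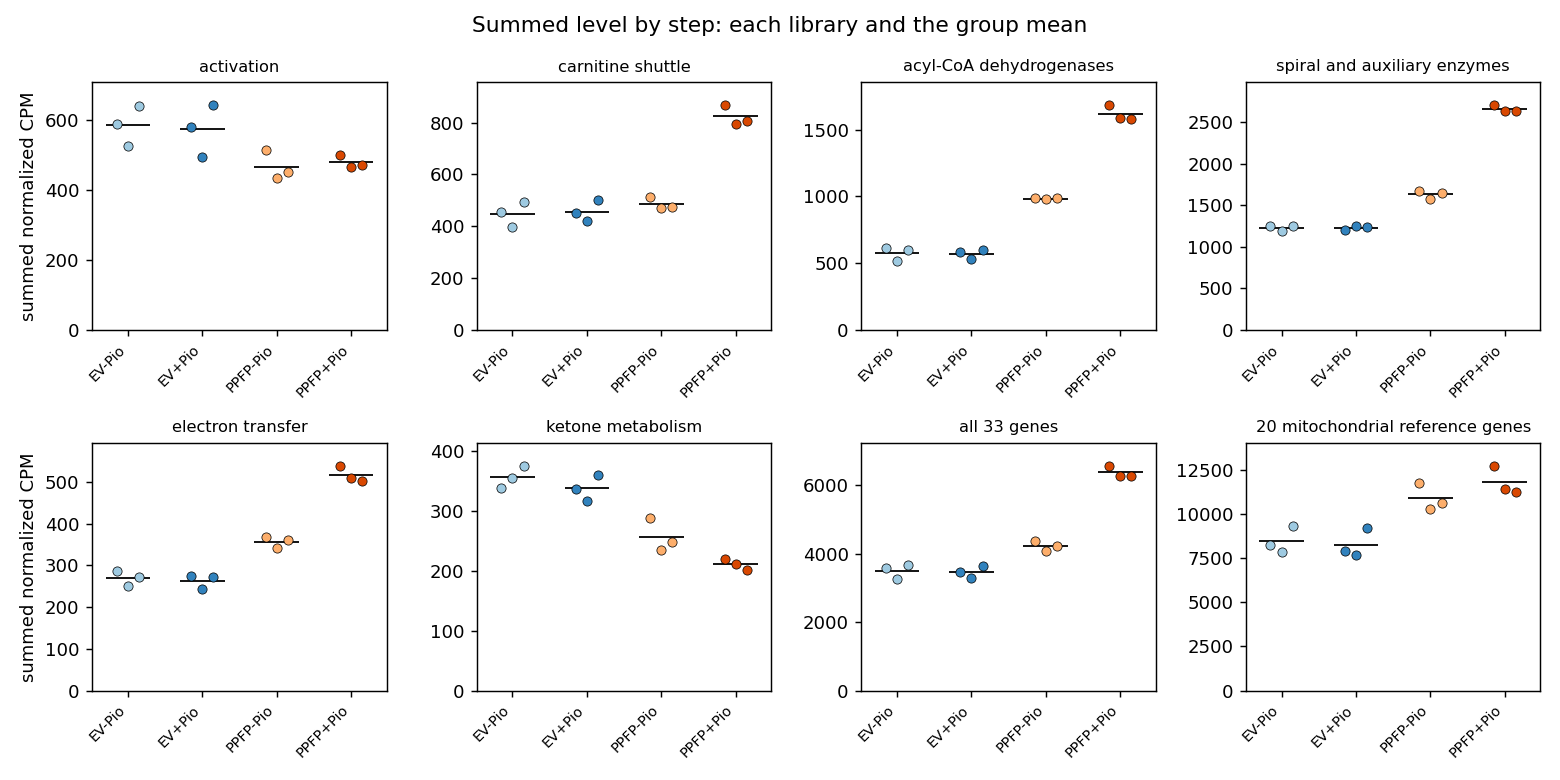
Summed normalized CPM (vertical axis, from 0) of the genes of each step, of all 33 genes and of 20 mitochondrial reference genes in the 4 groups. Points are libraries and bars the group mean. The dehydrogenases were at 519 to 612 CPM in EV cells without pioglitazone and 1583 to 1688 in PPFP cells with it, whereas ketone metabolism was at 339 to 376 and 201 to 219.8. The ketone step holds only Acat1, Bdh1 and Oxct1.

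The steps differed in their summed levels. The summed dehydrogenases were at 519 to 612 CPM in EV cells, 979 to 988 in PPFP cells and 1583 to 1688 in PPFP cells with pioglitazone. The carnitine shuttle overlapped between the lines without pioglitazone, at 396 to 493 and 470.03 to 512 CPM, and stood at 796 to 869 in PPFP cells with pioglitazone. Activation was at 525 to 640.3 CPM in EV cells without and 495 to 642 with pioglitazone, and at 433 to 513 and 466 to 500.3 in PPFP cells. EV cells with pioglitazone thus overlapped both PPFP groups, whereas EV cells without it did not.

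Without pioglitazone, 13 of the 32 genes tested were induced in PPFP cells relative to EV cells and 7 were repressed at an adjusted p under 0.05 (quasi-likelihood test of edgeR, adjusted over all genes tested by the method of Benjamini and Hochberg, n = 3 libraries per group), and 12 did not pass. Log2 fold changes of this test are given throughout ± a standard error, derived as their absolute value over the square root of the test's F statistic. Values from the replicate block are given without it. Of all 10264 genes tested, 22% were higher and 23.1% lower, so that the induced share of the pathway (40.6%) lay above the background and the repressed share (21.9%) near it. With the further requirement of a fold change above 2, the induced genes were Acadl and Acadm (7.27% of all genes) and the repressed genes Acsl3, Acadsb and Hadh (7.31% of all genes). Hadh entered the test only through its counts in EV cells, and without it 6 of 31 genes (19.4%) were repressed, 2 of them more than 2-fold. The median log2 fold change was 0.18 over the 32 genes and 0.19 without Hadh, compared with 0.0016 for all genes tested.

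When both lines were cultured with pioglitazone, 19 of 32 genes were induced and 6 repressed in PPFP cells, against a background of 26.3% and 26.4% of 10291 genes. More than 2-fold induction was reached by 11 genes (background 9.3%), namely Cpt1b, Cpt2, Slc25a20, Crat, Acadl, Acadm, Acadvl, Acad11, Acaa2, Etfa and Etfdh. More than 2-fold repression was reached by Acsl3, Acadsb, Hadh and Oxct1 (background 10.4%). Without Hadh 5 of 31 (16.1%) were repressed, 3 of them more than 2-fold. The median log2 fold change was 0.52, or 0.56 without Hadh, compared with 0.012 for all genes. Of the 13 genes induced without pioglitazone, 13 (100%) were among the 19 induced with it (68.4% of these), and leaving out Hadh, 4 repressed genes, Acsl3, Acadsb, Bdh1 and Oxct1, were shared, which is 4 of 6 without and 4 of 5 with pioglitazone. Over all genes tested in both comparisons the shares were 85.7% and 72.6% for induced genes and 87.4% and 76.5% for repressed genes. The 2 comparisons use different libraries, but same-numbered libraries of a line deviated together, so they are not independent.

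In PPFP cells with versus without pioglitazone, 14 of the 31 genes tested rose and 1, Oxct1, fell, against a background of 7.63% and 7.13% of 10064 genes. Crat, Acaa2 and Acad11 rose more than 2-fold (background 1.11%). The median log2 fold change was 0.30, compared with 0.012 for all genes. Within a line, libraries with the same replicate number deviated together, and when that number entered as a replicate block 21 genes rose and 2 fell, while the background also grew to 27.7% and 23.9%. The genes added by the block were Acsl1, Acsl3, Cpt1b, Mlycd, Acad9, Hadha and Hadhb among those that rose, and Bdh1 among those that fell.

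In EV cells, none of the 33 genes passed for pioglitazone (0 called by edgeR's quasi-likelihood test, as for all 10146 genes tested, 0%; none of the 33 had an unadjusted p under 0.05). DESeq2, edgeR's exact test and the fit with the replicate block also called 0 of these genes. The log2 fold changes of the 33 genes lay between -0.10 and 0.56, with a median of -0.0060, and the values of the 3 EV libraries with pioglitazone overlapped those without it for each gene. The highest was Hadh, a gene with few counts. Without Hadh and Acsl6, which both had few counts, the other 31 genes lay between -0.10 and 0.07.

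Whether the lines differed in their response was tested directly, as an interaction between line and treatment in a model of the 4 groups. The response was greater in PPFP cells for 10 of 33 genes, namely Cpt1a, Slc25a20, Crat, Acadl, Acadm, Acadvl, Acad11, Acaa2, Etfa and Etfdh, and lower for none, against 1.38% and 1.26% of all 10482 genes. The 33 include Hadh and Acsl6, which had 0 to 2 counts in each PPFP library and entered through EV cells, so that no response can be read for them and 31 genes remain. For the count of 0, DESeq2 called 1 gene, Oxct1, and 1 gene, Oxct1, had a negative term at an unadjusted p under 0.05. The difference exceeded 2-fold for Crat, Acaa2 and Acad11 (background 0.439%). With the replicate block within each line the counts were 19 higher and 2 lower (Bdh1 and Oxct1), against 17.2% and 17.1% of all genes. The block added 9 higher genes. Their blocked differences were 0.51 (adjusted p = 9.32e-06) for Etfb, 0.53 (adjusted p = 1.62e-05) for Mlycd and 0.38 (adjusted p = 5.53e-05) for Acads. They were 0.42 (adjusted p = 5.9e-05) for Decr1, 0.43 (adjusted p = 6.52e-05) for Cpt2 and 0.27 (adjusted p = 0.005) for Hadhb. They were 0.17 (adjusted p = 0.0163) for Acad9, 0.15 (adjusted p = 0.0178) for Hadha and 0.19 (adjusted p = 0.0183) for Acsl1, while Bdh1 gave -0.23 (adjusted p = 0.0225). Without the block the adjusted p of these 10 genes was between 0.0771 and 0.843.

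**Figure D2:**
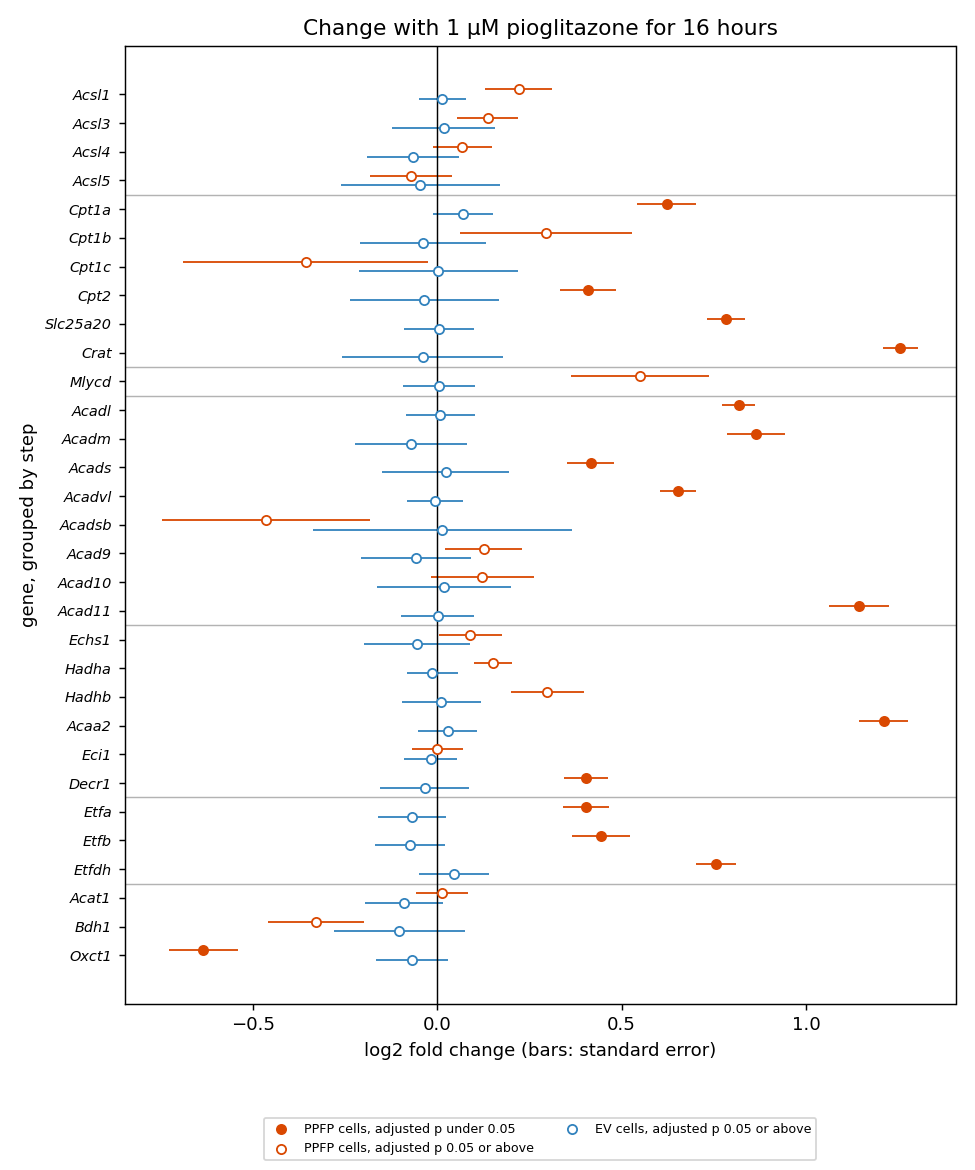
Log2 fold change with pioglitazone (horizontal axis; bars are standard errors, 3 libraries per group) for the 31 genes tested in both lines, grouped by step. Filled symbols passed an adjusted p of 0.05: 15 genes in PPFP cells, from Oxct1 at -0.63 to Crat at 1.26, and 0 in EV cells, whose points lie near 0.

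Of the 4 genes tested for activation of fatty acids to acyl-CoA, 2 were repressed in PPFP cells without pioglitazone and 1 with it, and none was induced, against the 22% to 26.4% of all genes called in either direction. Acsl3, a long-chain acyl-CoA synthetase of the endoplasmic reticulum and lipid droplets, was at 138, 110.2 and 134 CPM in EV cells without pioglitazone and 143, 109 and 136 with it, against 62.9, 52.3 and 58.9 in PPFP cells without pioglitazone and 64.5, 65.3 and 60.2 with it. All 6 PPFP libraries lay below all 6 EV libraries, and the log2 fold change was -1.14 ± 0.12 (adjusted p = 0.000224) without and -1.02 ± 0.12 (adjusted p = 0.000371) with pioglitazone. Acsl1, a synthetase tied to fatty acid oxidation in heart and fat, was at 71.8, 73.3 and 69.3 CPM in EV cells without pioglitazone and 72.4, 74.4 and 70.03 with it, against 51.1, 54.9 and 54.5 in PPFP cells without pioglitazone and 54.9, 64.6 and 65.9 with it. The PPFP libraries were again below the EV libraries, with a log2 fold change of -0.42 ± 0.08 (adjusted p = 0.00337) without pioglitazone, but with pioglitazone it did not pass (adjusted p = 0.101, and between 0.0249 and 0.192 over the alternatives). With pioglitazone the PPFP libraries of Acsl1 lay above those without it, and the change passed only with the replicate block, at 0.22 (adjusted p = 0.000573), with adjusted p between 0.000573 and 0.423 over the alternatives. For Acsl3 the block gave 0.14 (adjusted p = 0.0319), with a range of between 0.0319 and 0.777. Acsl4, which prefers arachidonic acid, lay between 179.9 and 247 CPM and Acsl5 between 123 and 193 over the 12 libraries, and neither passed by edgeR's quasi-likelihood test in any comparison. Without pioglitazone the adjusted p of Acsl4 between the lines was 0.0813, and between 0.0198 and 0.269 over the alternatives. Acsl6 was near the limit of detection, with 28 counts in EV cells and 1 in PPFP cells without pioglitazone over 3 libraries each, a ratio of 24.2 (exact 95% interval 4.003 to 990.1), and 38 and 3 counts with it, a ratio of 10.9 (3.46 to 55.2). These intervals cover counting error only, and the filter on low counts kept Acsl6 out of the comparisons between the lines and of the pioglitazone response of PPFP cells.

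**Figure D3:**
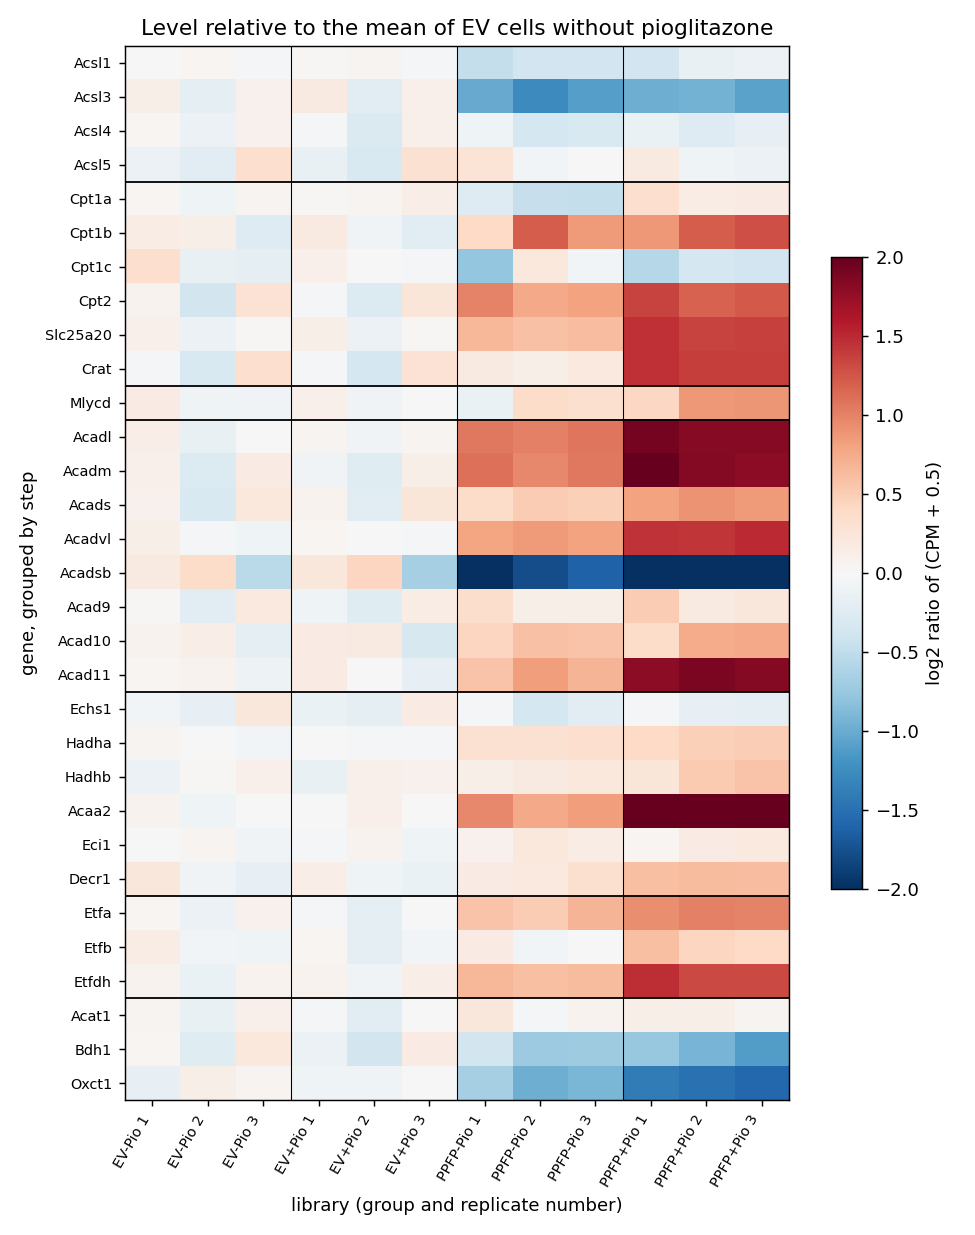
Log2 ratio of (CPM + 0.5) in each of the 12 libraries (columns) to the mean of EV cells without pioglitazone, for 31 genes (rows, grouped by step in the order of the text; Acsl6 and Hadh are left out for few counts). Red is higher and blue lower, with the colour ending at 2 in each direction. The darkest red lies in PPFP cells with pioglitazone for Acaa2, Acadm, Acadl and Acad11, whereas Acadsb, Acsl3 and Oxct1 are blue in all 6 PPFP libraries.

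Of the 6 carnitine shuttle genes, 4 (66.7%) rose with pioglitazone in PPFP cells, against 7.63% of all genes. Crat, carnitine acetyltransferase, which exchanges short acyl groups between CoA and carnitine, was at 98.3, 81.96 and 128 CPM in EV cells without pioglitazone and 98.5, 79.4 and 123 with it, against 115, 110.3 and 116 in PPFP cells without pioglitazone and 279.6, 264 and 264 with it. The lines overlapped without pioglitazone, and only the PPFP libraries with pioglitazone stood apart. The log2 fold change with pioglitazone in PPFP cells was 1.26 ± 0.05 (adjusted p = 0.00011), a 2.39-fold rise, and the difference from EV cells was 1.28 ± 0.24 (adjusted p = 0.0156). Slc25a20, the carnitine/acylcarnitine translocase of the inner membrane, was at 54.8, 47.00 and 51.6 CPM in EV cells without pioglitazone and 55.3, 47.2 and 51.7 with it, against 81.4, 76.6 and 78.4 in PPFP cells without pioglitazone and 141, 131 and 132 with it. Here PPFP libraries were above EV libraries already without pioglitazone, by a log2 fold change of 0.63 ± 0.09 (adjusted p = 0.000884), and pioglitazone added 0.78 ± 0.05 (adjusted p = 0.000465). With pioglitazone the lines differed by 1.40 ± 0.09 (adjusted p = 2.07e-05), and the response differed between the lines by 0.76 ± 0.11 (adjusted p = 0.00419).

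Cpt1a and Cpt2, the outer and inner carnitine palmitoyltransferases, differed in direction. Cpt1a, whose product is the malonyl-CoA sensitive entry point in most tissues, was at 231, 212 and 233 CPM in EV cells without pioglitazone and 228, 235 and 248 with it, against 189, 163 and 162 in PPFP cells without pioglitazone and 283, 249 and 253 with it. It was repressed in PPFP cells without pioglitazone, at a log2 fold change of -0.39 ± 0.09 (adjusted p = 0.00989), and rose with pioglitazone by 0.62 ± 0.08 (adjusted p = 0.00441). All 3 PPFP libraries with pioglitazone were then above the EV libraries with pioglitazone, at 0.16 ± 0.08, but this did not pass (adjusted p = 0.142). Its response differed between the lines by 0.54 ± 0.12 (adjusted p = 0.0338). The repression was lost without replicate 2 (adjusted p = 0.0511) or 3 (0.0616) of PPFP cells without pioglitazone, with adjusted p between 0.000629 and 0.0616 over the alternatives. Cpt2 was at 61.4, 45.5 and 71.6 CPM in EV cells without pioglitazone and 56.6, 48.5 and 69.4 with it, against 116, 99.3 and 103 in PPFP cells without pioglitazone and 149.7, 133 and 138 with it, which put every PPFP library above every EV library. Its log2 fold change was 0.84 ± 0.16 (adjusted p = 0.00438) without and 1.28 ± 0.14 (adjusted p = 0.000287) with pioglitazone, and it rose by 0.41 ± 0.08 (adjusted p = 0.0156) with pioglitazone in PPFP cells. That rise was lost without replicate 2 (adjusted p = 0.0765) or 3 (0.0795) of PPFP cells without pioglitazone or replicate 3 with it (0.0702), and in the fit over all 12 libraries (0.154), with adjusted p between 3.49e-09 and 0.154 over the alternatives.

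Cpt1b, the muscle form of the outer transferase, was at 8.21, 8.05 and 6.06 CPM in EV cells without pioglitazone and 8.43, 6.97 and 6.32 with it, against 9.86, 17.8 and 13.7 in PPFP cells without pioglitazone and 13.8, 17.8 and 18.7 with it. The PPFP libraries were above the EV libraries in both conditions, at 0.89 ± 0.23 (adjusted p = 0.0164) and 1.23 ± 0.17 (adjusted p = 0.000867). Its change with pioglitazone in PPFP cells passed only with the block, at 0.30 (adjusted p = 0.00386), with adjusted p between 0.00386 and 0.759 over the alternatives. Cpt1c, the neuronal form, was at 2.77, 1.85 and 1.799 CPM in EV cells without pioglitazone and 2.28, 2.12 and 2.03 with it, against 1.03, 2.500 and 2.01 in PPFP cells without pioglitazone and 1.25, 1.53 and 1.502 with it. The lines overlapped without pioglitazone, and it was lower in PPFP cells with pioglitazone at -0.57 ± 0.18 (adjusted p = 0.0338), a call lost without any 1 of 5 libraries (adjusted p 0.0596 to 0.0966: replicates 1 and 2 of EV cells and 1, 2 and 3 of PPFP cells), by DESeq2 (0.055), in the fit over all 12 libraries (0.107) and with a replicate block (0.124), with adjusted p between 0.0175 and 0.124 over the alternatives. Mlycd, malonyl-CoA decarboxylase, removes the inhibitor of Cpt1 and was at 42.96, 35.8 and 36.2 CPM in EV cells without pioglitazone and 40.8, 36.3 and 38.4 with it, against 34.9, 49.4 and 47.8 in PPFP cells without pioglitazone and 50.8, 70.3 and 70.7 with it. The lines overlapped without pioglitazone and separated with it, at 0.75 ± 0.15 (adjusted p = 0.00413). In PPFP cells Mlycd was higher in all 3 libraries with pioglitazone than in the 3 without it; the test gave 0.55 ± 0.19 (adjusted p = 0.107), and the block 0.55 (adjusted p = 5.16e-10), with adjusted p between 5.16e-10 and 0.29 over the alternatives.

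**Figure D4:**
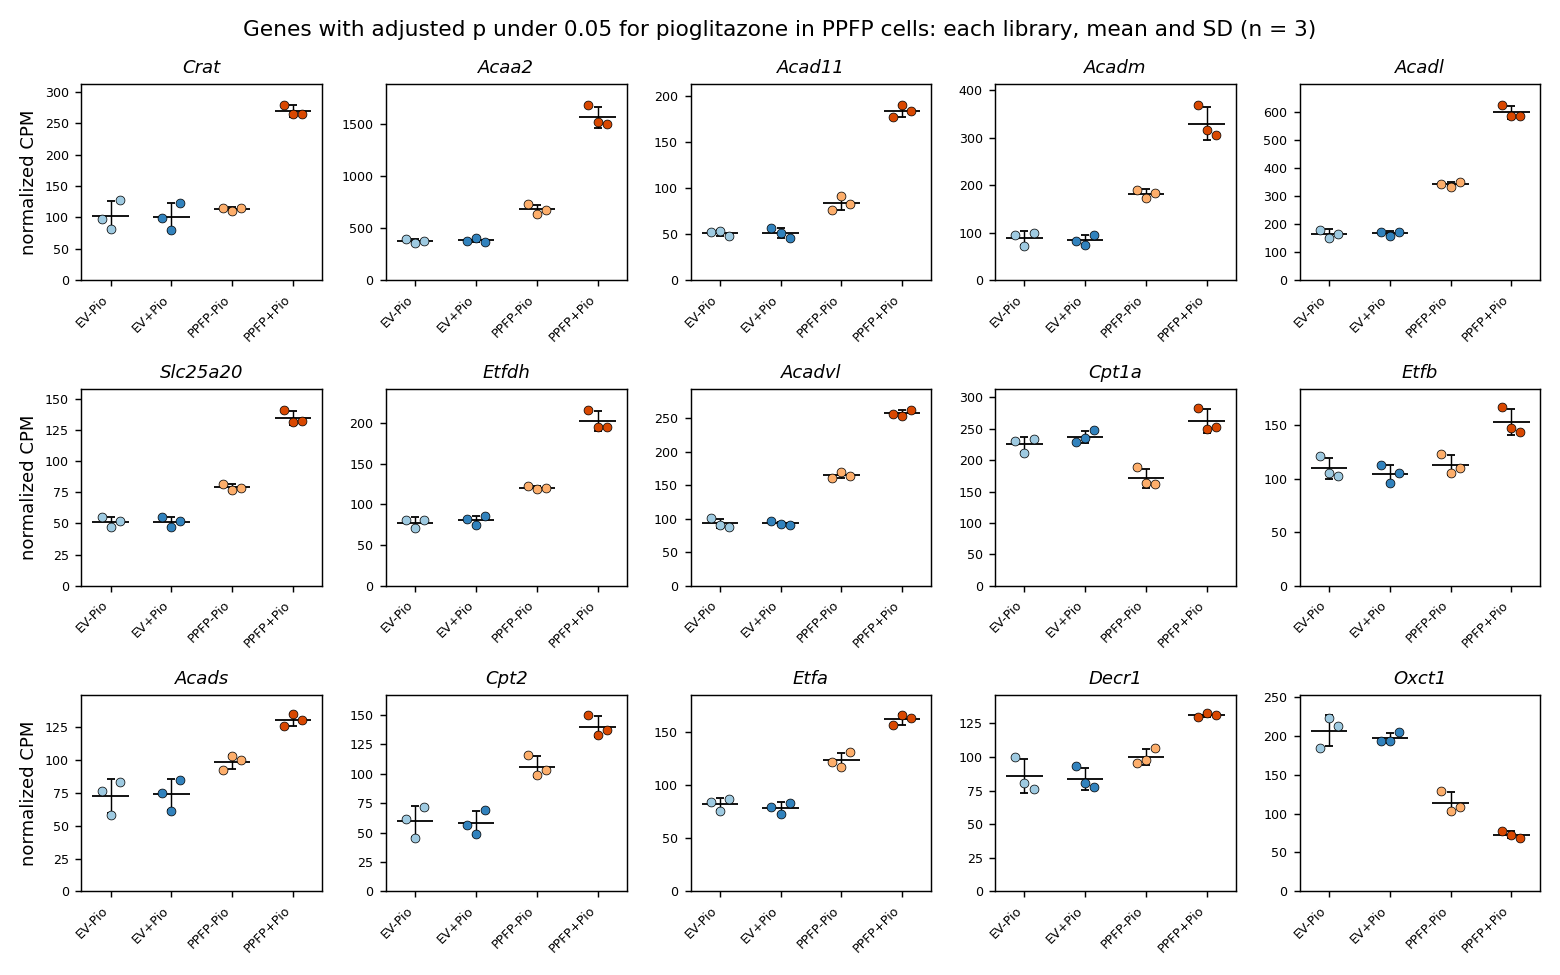
Normalized CPM (vertical axes, each from 0) of the 15 genes that passed for pioglitazone in PPFP cells, ordered by log2 fold change. Points are the 3 libraries of each group, the bar is the mean and the error bar the SD. In each panel the PPFP libraries with pioglitazone stand above those without, except Oxct1, where they stand below, and the EV groups overlap.

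Of the 8 acyl-CoA dehydrogenases, which open each turn of the spiral, 6 were induced and 1 repressed in PPFP cells without pioglitazone, 7 and 1 with it, and 5 rose with pioglitazone in PPFP cells. The induced shares were 75% and 87.5%, against 22% and 26.3% of all genes, and 62.5% rose, against 7.63%. Acadl, the long-chain enzyme, was at 181, 149.7 and 167 CPM in EV cells without pioglitazone and 172, 157 and 172 with it, against 342, 333 and 348 in PPFP cells without pioglitazone and 624, 583 and 584 with it. No PPFP library overlapped an EV library, and the log2 fold change was 1.04 ± 0.09 (adjusted p = 0.000103) without and 1.85 ± 0.08 (adjusted p = 5.85e-06) with pioglitazone, a 3.61-fold difference. Acadm, the medium-chain enzyme, was at 94.8, 72.7 and 98.8 CPM in EV cells without pioglitazone and 83.7, 74.2 and 95.9 with it, against 190.2, 172 and 184 in PPFP cells without pioglitazone and 368, 315 and 305 with it. Its log2 fold change between the lines was 1.04 ± 0.12 (adjusted p = 0.000476) without and 1.97 ± 0.13 (adjusted p = 2.74e-05) with pioglitazone. Acadvl, the very-long-chain enzyme of the inner membrane, was at 101, 90.99 and 87.9 CPM in EV cells without pioglitazone and 96.04, 92.2 and 90.8 with it, against 161, 169 and 163 in PPFP cells without pioglitazone and 255, 253 and 263 with it. The lines again did not overlap, at 0.82 ± 0.08 (adjusted p = 0.000207) and 1.48 ± 0.07 (adjusted p = 7.57e-06). Acad11, which acts on long-chain acyl-CoA and is less well known, was at 52.4, 53.4 and 47.7 CPM in EV cells without pioglitazone and 57.2, 51.3 and 45.5 with it, against 76.5, 91.9 and 82.3 in PPFP cells without pioglitazone and 177, 190.03 and 183 with it. Its log2 fold change was 0.71 ± 0.10 (adjusted p = 0.000878) without and 1.85 ± 0.10 (adjusted p = 1.2e-05) with pioglitazone.

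With pioglitazone in PPFP cells, these 4 dehydrogenases rose by log2 fold changes of 1.14 ± 0.08 (adjusted p = 0.000663) for Acad11, 0.86 ± 0.08 (adjusted p = 0.00138) for Acadm, 0.82 ± 0.05 (adjusted p = 0.00037) for Acadl and 0.65 ± 0.05 (adjusted p = 0.000732) for Acadvl. The response differed from that of EV cells by 1.13 ± 0.13 (adjusted p = 0.00138) for Acad11 and 0.80 ± 0.11 (adjusted p = 0.00311) for Acadl. The same term was 0.65 ± 0.09 (adjusted p = 0.00338) for Acadvl and 0.92 ± 0.18 (adjusted p = 0.0224) for Acadm. Acads, the short-chain enzyme, was at 76.7, 58.3 and 83.1 CPM in EV cells without pioglitazone and 75.3, 61.6 and 85.2 with it, against 92.5, 103 and 100.3 in PPFP cells without pioglitazone and 126, 135 and 131 with it. The PPFP libraries were above the EV libraries, at 0.44 ± 0.13 (adjusted p = 0.0301) and 0.83 ± 0.13 (adjusted p = 0.00141), and the rise with pioglitazone was 0.42 ± 0.06 (adjusted p = 0.00822). Without pioglitazone the call for Acads was lost without replicate 1 of EV cells (adjusted p = 0.0655) or replicate 2 (0.092) or 3 (0.0922) of PPFP cells and with library size alone (0.0654), with adjusted p between 0.0118 and 0.0922 over the alternatives. Its rise was lost without replicate 2 of PPFP cells with pioglitazone (0.0537) and in the fit over all 12 libraries (0.0823), with adjusted p between 2.68e-09 and 0.0823 over the alternatives.

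Acadsb, which acts on branched short-chain acyl-CoA from isoleucine, went the other way, at 8.24, 9.36 and 4.76 CPM in EV cells without pioglitazone and 8.46, 9.800 and 4.33 with it, against 1.103, 1.75 and 2.01 in PPFP cells without pioglitazone and 0.946, 1.16 and 1.37 with it. All 6 PPFP libraries were below all 6 EV libraries, and the log2 fold change was -2.20 ± 0.32 (adjusted p = 0.00121) without and -2.67 ± 0.34 (adjusted p = 0.000545) with pioglitazone. Acad10, a dehydrogenase with an additional kinase-like domain, was at 7.36, 7.72 and 6.06 CPM in EV cells without pioglitazone and 7.94, 7.97 and 5.52 with it, against 9.64, 10.7 and 10.7 in PPFP cells without pioglitazone and 9.24, 12.04 and 12.3 with it. It was higher in PPFP cells at 0.56 ± 0.14 (adjusted p = 0.0144) and 0.66 ± 0.19 (adjusted p = 0.0222). The first call was lost without replicate 3 of PPFP cells (adjusted p = 0.0534), and the second without replicate 2 (0.0806) or 3 (0.0808) of PPFP cells and with library size alone (0.0626). Over the alternatives the adjusted p of Acad10 was between 0.00184 and 0.0534 without and between 0.00474 and 0.0808 with pioglitazone. Acad9, also an assembly factor of respiratory complex I, was at 90.9, 76.8 and 103 CPM in EV cells without pioglitazone and 84.8, 75.96 and 99.9 with it, against 114, 97.02 and 96.9 in PPFP cells without pioglitazone and 127, 102 and 105 with it. The lines differed past the threshold with pioglitazone, at 0.37 ± 0.13 (adjusted p = 0.0498). That call was lost without replicate 1 or 2 of EV cells or any 1 replicate of PPFP cells, with RLE size factors (0.0521), with library size alone (0.142), with no filter (0.0728) and with at least 10 counts in every library (0.0678), with adjusted p between 0.0177 and 0.143 over all alternatives. The change with pioglitazone in PPFP cells passed only with the block, at 0.12 (adjusted p = 0.0101), with adjusted p between 0.0101 and 0.943 over the alternatives.

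**Figure D5:**
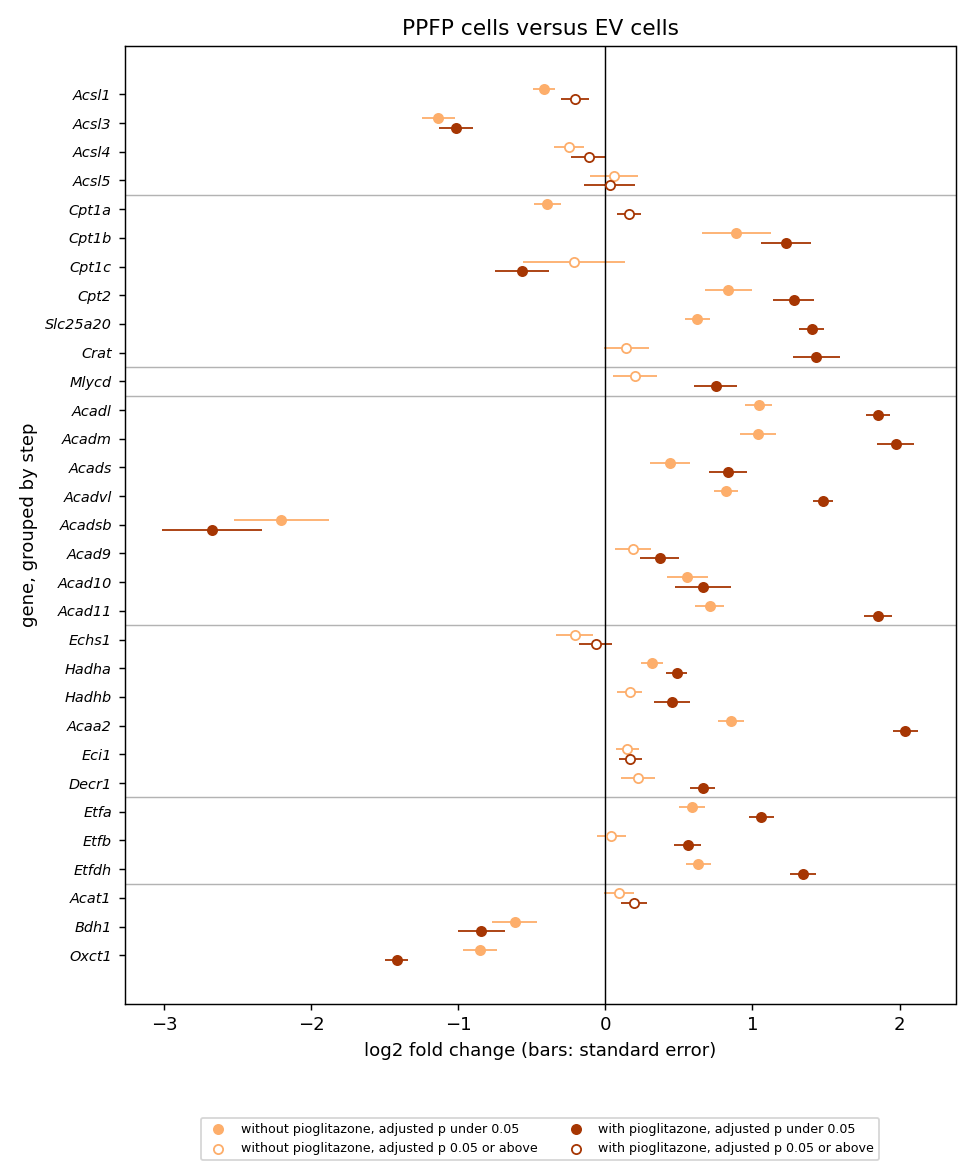
Log2 fold change of PPFP cells versus EV cells (horizontal axis; bars are standard errors) without and with pioglitazone for 31 genes, grouped by step, with filled symbols for an adjusted p under 0.05. With pioglitazone Acaa2 (2.04) and Acadm (1.97) lie farthest to the right, and Acadsb (-2.67) and Oxct1 (-1.42) farthest to the left.

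Of the 7 enzymes that complete the spiral, 2 were induced and 1 repressed in PPFP cells without pioglitazone, and 4 and 1 with it. The repressed gene was Hadh, which passed the filter only through EV cells, so its call is not read as a result. The induced shares were 28.6%, near the 22% of all genes, and 57.1%, against 26.3%. Acaa2, the mitochondrial thiolase that releases acetyl-CoA, had the highest log2 fold change between the lines with pioglitazone of the 32 genes tested. It was at 397, 354 and 379 CPM in EV cells without pioglitazone and 380.3, 402 and 373 with it, against 731, 639.6 and 673 in PPFP cells without pioglitazone and 1681, 1515 and 1500.1 with it. The PPFP libraries without pioglitazone lay between the EV libraries and the PPFP libraries with pioglitazone, without overlap. The log2 fold change between the lines was 0.86 ± 0.09 (adjusted p = 0.000236) without pioglitazone and 2.04 ± 0.08 (adjusted p = 5.1e-06), or 4.11-fold, with it. In PPFP cells Acaa2 rose with pioglitazone by 1.21 ± 0.07 (adjusted p = 0.00037), and the response differed from that of EV cells by 1.17 ± 0.11 (adjusted p = 0.00042), the smallest adjusted p of the 33 genes.

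The trifunctional protein genes moved less. Hadha, its alpha subunit with hydratase and dehydrogenase activity, was at 274, 262 and 253 CPM in EV cells without pioglitazone and 265, 259 and 259 with it, against 324, 325 and 334 in PPFP cells without pioglitazone and 347, 367 and 369 with it. Hadhb, its thiolase subunit, was at 256, 283 and 299 CPM in EV cells without pioglitazone and 252, 300.1 and 295 with it, against 304, 315 and 322 in PPFP cells without pioglitazone and 330.02, 403 and 414 with it. For Hadha the PPFP libraries were above the EV libraries in both conditions, at 0.32 ± 0.07 (adjusted p = 0.0095) and 0.48 ± 0.07 (adjusted p = 0.00124), and for Hadhb the difference passed only with pioglitazone, at 0.45 ± 0.12 (adjusted p = 0.0173). The call for Hadhb was lost without replicate 1 of EV cells (adjusted p = 0.0668) or replicate 2 (0.0766) or 3 (0.0778) of PPFP cells and with library size alone (0.0638), with adjusted p between 0.00296 and 0.0778 over the alternatives. With pioglitazone both genes were higher in all 3 PPFP libraries than in the 3 without, and passed only with the block, at 0.15 (adjusted p = 0.00054) for Hadha and 0.29 (adjusted p = 2.45e-06) for Hadhb. Over the alternatives the adjusted p was between 0.00054 and 0.331 for Hadha and between 2.45e-06 and 0.276 for Hadhb.

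Decr1, the dienoyl-CoA reductase needed for polyunsaturated fatty acids, was at 99.97, 80.9 and 76.1 CPM in EV cells without pioglitazone and 93.1, 80.5 and 77.7 with it, against 95.3, 97.9 and 106 in PPFP cells without pioglitazone and 129, 132 and 131 with it. The lines overlapped without pioglitazone and separated with it, at 0.66 ± 0.09 (adjusted p = 0.000603), and the rise in PPFP cells was 0.40 ± 0.06 (adjusted p = 0.00722). Eci1, the enoyl-CoA isomerase for unsaturated chains, lay between 76.2 and 93.3 CPM, and Echs1, the short-chain enoyl-CoA hydratase, between 109 and 163. Neither Eci1 nor Echs1 passed by edgeR's quasi-likelihood test in any comparison. With pioglitazone the adjusted p of Eci1 between the lines was 0.11, and between 0.0441 and 0.76 over the alternatives. Hadh, the short-chain 3-hydroxyacyl-CoA dehydrogenase, was nearly undetected in PPFP cells, with 35 counts in the 3 EV libraries and 1 in the 3 PPFP libraries without pioglitazone and 57 and 1 with it. The ratio of EV to PPFP cells was 30.3 (exact 95% interval for counting error 5.09 to 1229) and 49.1 (8.46 to 1972). Hadh passed the filter on low counts only through the EV libraries, so its call in both comparisons is not read as a result. In EV cells Hadh was at 0.371, 0.436 and 0.366 CPM without and 0.759, 0.611 and 0.349 with pioglitazone.

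All 3 electron transfer genes rose with pioglitazone in PPFP cells, against 7.63% of all genes. Etfdh, the ubiquinone oxidoreductase that passes the electrons on, was at 81.4, 70.7 and 81.5 CPM in EV cells without pioglitazone and 81.9, 74.2 and 85.4 with it, against 123, 119 and 120.3 in PPFP cells without pioglitazone and 216, 196 and 195 with it. PPFP libraries were above EV libraries by 0.63 ± 0.08 (adjusted p = 0.000729) without and 1.34 ± 0.09 (adjusted p = 2.96e-05) with pioglitazone, and the rise in PPFP cells was 0.76 ± 0.05 (adjusted p = 0.000663). Etfa, the alpha subunit of the flavoprotein, was at 83.9, 75.5 and 86.8 CPM in EV cells without pioglitazone and 79.8, 72.5 and 82.8 with it, against 122, 117 and 131 in PPFP cells without pioglitazone and 156, 166 and 163 with it. The corresponding values were 0.59 ± 0.09 (adjusted p = 0.00122), 1.06 ± 0.08 (adjusted p = 6.69e-05) and, for the rise, 0.40 ± 0.06 (adjusted p = 0.00877), which was lost without replicate 2 of PPFP cells with pioglitazone (0.0507), with adjusted p between 1.17e-08 and 0.0507 over the alternatives. Etfb, the beta subunit, was at 121, 106 and 103 CPM in EV cells without pioglitazone and 113, 96.1 and 105 with it, against 123, 105 and 111 in PPFP cells without pioglitazone and 167, 148 and 144 with it, so that the lines overlapped without pioglitazone. With pioglitazone it was higher in PPFP cells by 0.56 ± 0.09 (adjusted p = 0.00189), and the rise was 0.45 ± 0.08 (adjusted p = 0.0138). The rise of Etfb was lost without replicate 2 (0.0695) or 3 (0.0712) of PPFP cells without pioglitazone or replicate 2 with it (0.0539), with adjusted p between 7.29e-10 and 0.0712 over the alternatives. The response differed between the lines by 0.70 ± 0.11 (adjusted p = 0.00759) for Etfdh and 0.46 ± 0.11 (adjusted p = 0.0497) for Etfa, while Etfb gave 0.51 ± 0.13 (adjusted p = 0.0771).

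Of the 3 ketone genes, 2 were repressed in PPFP cells in both conditions, and 1 fell with pioglitazone, against 23.1%, 26.4% and 7.13% of all genes. Oxct1, the CoA transferase that commits acetoacetate to oxidation outside the liver, was at 184, 222 and 212 CPM in EV cells without pioglitazone and 193, 193 and 205 with it, against 129, 104 and 109 in PPFP cells without pioglitazone and 77.5, 72.5 and 68.9 with it. The order was the reverse of that for Acaa2, with EV libraries highest and PPFP libraries with pioglitazone lowest, without overlap. The log2 fold change between the lines was -0.85 ± 0.12 (adjusted p = 0.000809) without and -1.42 ± 0.08 (adjusted p = 1.38e-05) with pioglitazone, and Oxct1 fell with pioglitazone in PPFP cells, at -0.63 ± 0.09 (adjusted p = 0.00722). The difference in response between the lines was -0.58 ± 0.14 (adjusted p = 0.0511), just outside the threshold, and -0.58 (adjusted p = 3.49e-05) with the replicate block within each line, with adjusted p between 3.49e-05 and 0.135 over the alternatives. Bdh1, the dehydrogenase that interconverts hydroxybutyrate and acetoacetate, was at 41.9, 34.2 and 47.2 CPM in EV cells without pioglitazone and 37.7, 31.6 and 45.9 with it, against 31.3, 24.4 and 24.6 in PPFP cells without pioglitazone and 23.9, 21.2 and 18.6 with it. It was lower in PPFP cells at -0.62 ± 0.15 (adjusted p = 0.0127) and -0.84 ± 0.16 (adjusted p = 0.0039), the first of which was lost without replicate 2 (0.0537) or 3 (0.0605) of PPFP cells, with adjusted p between 0.00117 and 0.0605 over the alternatives. With pioglitazone Bdh1 passed only with the block, at -0.33 (adjusted p = 0.000101), with adjusted p between 0.000101 and 0.356 over the alternatives. Acat1, the thiolase of acetoacetyl-CoA, lay between 92.6 and 127 CPM and did not pass in any comparison.

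Of the 10 interaction calls, 4 were lost under some alternative. Of the 10 genes, 6, namely Slc25a20, Acadl, Acadvl, Acad11, Acaa2 and Etfdh, passed with every library left out in turn. Crat was lost without replicate 1 of EV cells with pioglitazone (adjusted p = 0.0501) or replicate 2 (0.0682) or 3 (0.0516) of PPFP cells without it, with adjusted p between 8.49e-10 and 0.0682 over the alternatives. Acadm was lost without these 3 libraries and without replicate 1 of EV cells without pioglitazone or replicate 2 of PPFP cells with it (adjusted p 0.0506 to 0.0828), with adjusted p between 2.43e-07 and 0.0828 over the alternatives. Cpt1a passed only without replicate 2 of EV cells or replicate 1 of PPFP cells, both without pioglitazone, or replicate 3 of EV cells with it, and was lost without each of the other 9 libraries, with adjusted p between 2.61e-06 and 0.107 over the alternatives. Etfa passed only without either of those 2 EV libraries and was lost without each of the other 10, with adjusted p between 2.43e-05 and 0.181. Etfa was also lost with RLE size factors (0.0554), library size alone (0.0865), no filter (0.081) and at least 10 counts in every library (0.0574), and Cpt1a with no filter (0.0546).

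Other genes of the pathway, counted as lists, moved in both directions. Of 26 tested, 7 were higher and 5 lower in PPFP cells without pioglitazone, 9 and 5 with it, and 7 rose and 1 fell with pioglitazone in PPFP cells. Between the lines these shares, 26.9% and 19.2% without and 34.6% and 19.2% with pioglitazone, lay near those of all genes (22% and 23.1%, then 26.3% and 26.4%), while 26.9% rose, against 7.63%. With the replicate block 12 rose and 8 fell, against 27.7% and 23.9% of all genes. Among the 26, the 8 genes of ketone synthesis and ketone carriers summed to 238 to 262 CPM in EV cells without pioglitazone. They summed to 423 to 448 CPM in PPFP cells with it. Of these 8, 3 (37.5%) were higher and 0 lower in PPFP cells without pioglitazone, and 5 (62.5%) and 0 with it. In PPFP cells 3 rose and 0 fell with pioglitazone, and 5 and 2 with the block. Slc16a1, a monocarboxylate carrier that takes ketone bodies, rose with pioglitazone by 1.04 ± 0.07 (adjusted p = 0.000458). Ech1, a dienoyl-CoA isomerase, was at 59.2, 58.6 and 49.5 CPM in EV cells without pioglitazone and 56.4, 64.8 and 49.2 with it, against 64.8, 77.8 and 76.9 in PPFP cells without pioglitazone and 131, 147 and 147 with it, with a rise of 0.97 ± 0.10 (adjusted p = 0.00178) and a difference between the lines in response of 0.93 ± 0.16 (adjusted p = 0.0123). Eci2 rose by 0.61 ± 0.10 (adjusted p = 0.0105), Hsd17b10 by 0.45 ± 0.07 (adjusted p = 0.00695) and Pcca, of propionyl-CoA carboxylase, by 0.60 ± 0.07 (adjusted p = 0.00252), while Ivd, isovaleryl-CoA dehydrogenase, fell at -0.27 ± 0.06 (adjusted p = 0.0341). In EV cells none of the 26 passed, by edgeR (0 at an unadjusted p under 0.05), by DESeq2 or by the exact test.

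Of 20 mitochondrial reference genes outside the pathway, from the matrix, membranes and respiratory chain, 6 were higher and 1 lower in PPFP cells without pioglitazone (median log2 fold change 0.18), and 12 and 0 with it (median 0.39). The higher shares were 30% and 60%, against 22% and 26.3% of all genes. With pioglitazone in PPFP cells 1, the chaperonin Hspd1, rose (median 0.0996, compared with 0.30 for the 31 pathway genes), and with the replicate block 11 rose, against 27.7% of all genes. Cs, citrate synthase, differed between the lines by 0.89 ± 0.07 (adjusted p = 7.57e-05) without and 1.04 ± 0.07 (adjusted p = 3.96e-05) with pioglitazone. The summed level of the 20 genes was 7714 to 9309 CPM in EV cells, 10278 to 11799.6 in PPFP cells and 11278 to 12761 in PPFP cells with pioglitazone. The part of these genes' levels in the results was not tested.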

How the data were processed

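RNA-seq was analysed from 12 libraries, 3 from independent experiments in each of the 4 groups. The authors deposited raw read counts per gene symbol; per the submitters' processing notes, reads were aligned to rn4 with TopHat2 2.0.11 and counted with HTSeq 0.6.1p1 in its intersection-strict mode, and strand use was not given in the sources used here. Total counts were between 23724703 and 35240176 per library. Genes were filtered by edgeR's filterByExpr within each comparison, scaled by TMM and tested with edgeR 4.0.16 (glmQLFit and glmQLFTest) in R 4.3.3 with limma 3.58.1. Benjamini-Hochberg adjustment was over all genes tested, and an adjusted p under 0.05 was called. DESeq2 1.42.0, other scalings, other filters and each library left out were alternatives. The promoter search and the figures used Python 3.11.15, pandas 2.3.3, numpy 2.4.6 and matplotlib 3.10.9.

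The genes and lists were chosen with earlier results of these data known. Library values are given for each gene with an adjusted p under 0.05 in any comparison and ranges for the others. Same-numbered libraries deviated together within a line (correlation of deviations from group means 0.882, 0.698 and 0.651 in PPFP cells, and 0.702, 0.865 and 0.905 in EV cells), so blocked values are given beside pioglitazone results where they change a call. Replicate 3 of PPFP cells with pioglitazone, however, was nearer to replicate 2 of those without it than to replicate 3. The closest libraries, replicates 2 and 3 of PPFP cells with pioglitazone, still differed beyond sampling noise (chi-square per gene 1.70). The other pairs within a group gave 17.8 to 112.9. These 2 libraries were counted separately, but whether they are as independent as the others was not tested. If they are not, the spread in PPFP cells with pioglitazone is understated. The tests were also run on simulated counts, and the outcome is not reported here. Deposited ChIP-seq peak lists were not used here, because they are on rn4 and the promoters on GRCr8. Some genes of the other pathway list are counted in its totals but are not reported here by name.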

Additional observations from a re-analysis of the deposited data

Results flagged for a closer look

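The pioglitazone response differed between PPFP cells and EV cells, by the interaction term of edgeR's quasi-likelihood fit, for 10 genes. The difference in log2 fold change was 1.281 for Crat, 1.17 for Acaa2, 1.128 for Acad11, 0.9242 for Acadm and 0.796 for Acadl. It was 0.7645 for Slc25a20, 0.6975 for Etfdh, 0.6461 for Acadvl, 0.5402 for Cpt1a and 0.459 for Etfa. The adjusted p lay between 0.00042 (Acaa2) and 0.0497 (Etfa), and the calls that rest on single libraries are given with the results.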

How the results depend on the processing

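No result reversed its direction under the alternatives that were run. With the replicate block, 2 genes rather than 1 fell with pioglitazone in PPFP cells, and for the difference in response between the lines 19 genes were higher rather than 10, and 2 lower rather than 0. Library size alone, DESeq2 and a minimum of 10 counts in every library each gave 1 lower gene, Oxct1. Beyond the calls named beside the results, the block changed no other pioglitazone call of the 33 genes. For the difference in response it gave 9 higher mitochondrial reference genes rather than 0, and 9 higher and 2 lower other pathway genes rather than 3 and 0. Between the lines only the libraries numbered 2 deviated together. The correlations for numbers 1, 2 and 3 were -0.283, 0.458 and -0.435 without pioglitazone, and -0.271, 0.361 and -0.514 with it. For PPFP versus EV cells the block gave 13 higher and 7 lower without pioglitazone and 18 and 5 with it, where Cpt1c (adjusted p = 0.124) and Acad9 (0.0552) were lost. With each library left out in turn, PPFP versus EV cells gave 11 to 14 higher and 5 to 8 lower genes without pioglitazone, and 16 to 19 and 5 to 7 with it. The response of PPFP cells gave 11 to 17 and 1, that of EV cells 0, and the difference between them 6 to 10 higher, with 6 without replicate 1 of EV cells with pioglitazone or replicate 2 or 3 of PPFP cells without it. The cause was not tested. Scaling by library size alone moved the median log2 fold change of all genes from 0.012 to -0.12 for PPFP versus EV cells with pioglitazone. Allowing 1 mismatch left 1 promoter match. The planned comparison with peaks and its alternatives were not run.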
